A study of Mus musculus with 222 samples.

Results

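Described here are 50 and 54 mammary tumors of F1BX mice with high and low expression, respectively, of Btn1a1, the gene of butyrophilin, a membrane protein of the milk fat globule. They were chosen by the measured level of Btn1a1, among F1BX tumors whose arrays had an interquartile range of at least 2.8 on the log2 scale, without arrays of names ending in R. The 50 high Btn1a1 tumors had a log2 value of 11 or more and came from 41 mice, and the 54 low Btn1a1 tumors had a value under 9 and came from 48 mice. Some mice gave tumors to both groups, so that the mice numbered 78 in all. Between them lay 36 tumors, called middle here, which brings the tumors of these arrays to 140 from 93 mice. The series holds 222 arrays, of which 160 are labelled F1BX, and each array measured the RNA of 1 tumor or normal gland.

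All tumors came from mice with the MMTV-ErbB2 transgene, in which the mouse mammary tumor virus promoter drives ErbB2 in mammary epithelium, and the tumors arose spontaneously. F1BX mice are the offspring of F1 mice (C57BL/6 x FVB/N) and FVB/N mice, so that each mouse has its own mixture of C57BL/6 and FVB/N alleles. The high and low tumors share this cross, and no treatment separates them. The labels give neither the age of a mouse nor whether it had been pregnant. The inbred FVB tumors and the F1 tumors of the same series carry the same transgene and are used for comparison. Levels are also given for 8 normal mammary glands, 3 from wild type F1 mice, which lack the transgene, and 2 from F1 and 3 from FVB mice that carry it.

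In the mammary gland, milk is made by alveolar luminal cells, which differentiate under prolactin. Prolactin acts through its receptor and JAK2 on the transcription factor STAT5, which binds the promoters of casein genes together with other factors. The cells secrete caseins and whey proteins by exocytosis, and lipid droplets by budding, wrapped in a membrane that carries butyrophilin, xanthine dehydrogenase and mucins. In a bulk tumor, fewer secretory cells and less RNA per secretory cell cannot be told apart.

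STAT5 factors recognize sites of the form TTCNNNGAA. The 250 bases before the start of the casein genes Csn1s1 and Csn2 are printed 5′ to 3′ on the strand of the gene (RefSeq, GRCm38.p6), because both genes hold such letters and differed strongly between the groups. Csn1s1 lies at chr5:87665958-87666207 on the plus strand and Csn2 at chr5:87699426-87699675 on the minus strand, and capitals mark the motif, whose form is the same on both strands.
Csn1s1: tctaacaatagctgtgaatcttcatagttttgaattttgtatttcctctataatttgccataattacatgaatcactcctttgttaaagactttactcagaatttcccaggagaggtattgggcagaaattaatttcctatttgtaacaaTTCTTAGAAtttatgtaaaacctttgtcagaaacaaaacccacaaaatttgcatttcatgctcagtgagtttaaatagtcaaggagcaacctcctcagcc
Csn2: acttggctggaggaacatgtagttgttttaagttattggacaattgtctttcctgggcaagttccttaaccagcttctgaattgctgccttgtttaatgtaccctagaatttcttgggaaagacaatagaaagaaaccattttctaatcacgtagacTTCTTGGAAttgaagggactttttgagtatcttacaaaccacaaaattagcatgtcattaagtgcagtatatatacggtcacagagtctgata

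The motif began 100 bases before the start in Csn1s1 and 93 bases before it in Csn2. The same window of Csn1s2a and of Wap held no such letters. Of the genes called higher in high Btn1a1 tumors that have a promoter in the table, 7 of 66 (10.6%) held the motif, against 2 of 32 called lower (6.25%) and 1127 of 14708 measured genes (7.66%). The share was thus near that of all genes, and a match is a description of letters, not of binding. Csn1s2b and Csn3 have no entry in the table, nor has Btn1a1.

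Btn1a1 varied over the whole range between its ends rather than in 2 separate groups. In high tumors it ran from just over 11 to 13.03 with a median of 12.22, in middle tumors from 9.06 to 10.93 with a median of 10.20, and in low tumors from 5.92 to 8.98 with a median of 7.41. These values chose the groups and are given without a test. The tumors nearest the limits were 287T1 (8.98) and 218T2 (9.06) at the lower one, and 278T2 (10.93) and 163T4 (just over 11) at the upper one. On the repeat arrays of the low tumors 035T1 and 246T1, which had a narrower spread of values, Btn1a1 was 7.59 and 7.38, against 8.35 and 8.21 on the arrays used. In the normal glands, whose arrays were also narrow, Btn1a1 was 9.86, 10.09 and 10.84 in the 3 wild type F1 glands, 8.27 and 8.35 in the 2 MMTV-ErbB2 F1 glands, and 7.29, 9.06 and 9.20 in the 3 MMTV-ErbB2 FVB glands. The wild type glands lay above all glands with the transgene, a difference that was not tested.

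**Figure D1:**
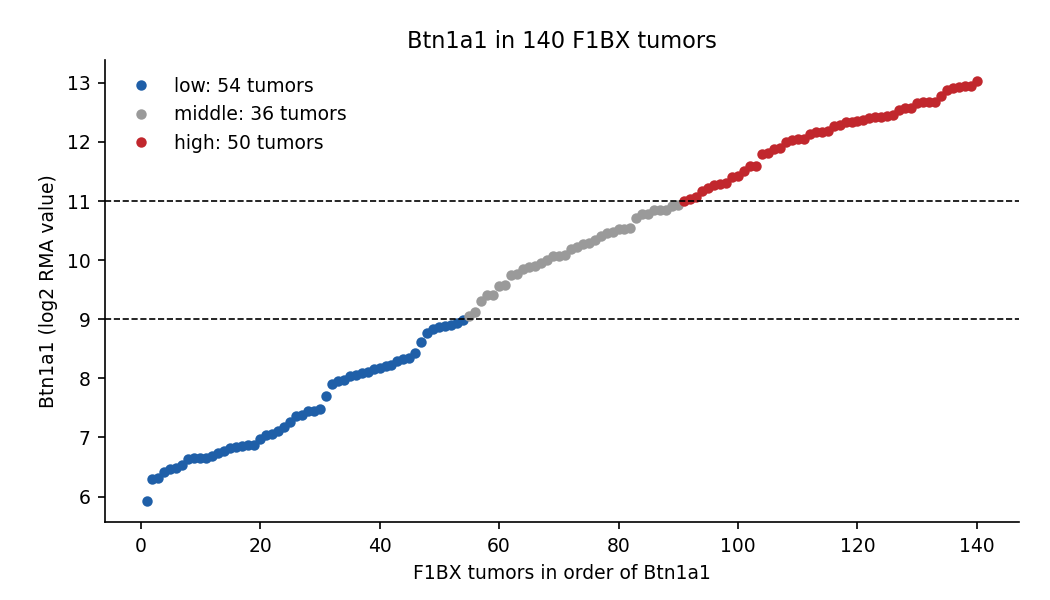
Btn1a1 (y axis, log2 RMA value) in 140 F1BX tumors placed in order of their level (x axis), 1 point per tumor, colored as low (54), middle (36) or high (50), with dashed lines at 9 and 11. The tumors form 1 continuous series without a gap at either line.

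Tumors of 1 mouse were often of different kinds. Of the 93 mice, 30 had 2 or more tumors, and 11 of these had both a high and a low one. High tumors alone were found in 4 of the 30 mice and low tumors alone in 1. The tumor numbered 1 in its mouse made up 27 of the 50 high tumors (54%), 12 of the 36 middle tumors (33.3%) and 38 of the 54 low tumors (70.4%). What the number of a tumor stands for is not given in the labels. The spread of values on the arrays was alike, with a median interquartile range of 3.21 in the high and 3.23 in the low group.

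A tumor of the low group, 168T1, stood apart from all other high and low tumors in epithelial genes. Its Epcam, the gene of an epithelial adhesion molecule, was 6.49, where the others ran from 11.87 to 12.58. Its Erbb2 was 9.32, where the others ran from 11.73 to 12.86, and Twist1, a transcription factor of mesenchymal cells, was 10.71 against at most 8.99. Krt8, a keratin of luminal cells, was 12.88 and within the range of the others. Without this tumor, 178 of the 179 named or listed genes that passed the test still passed in the same direction.

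Probe sets were compared between the high and low tumors with limma, with the mouse as a random block. A probe set was called where its false discovery rate (FDR) did not exceed 0.005 and its fold reached 2. A single gene is said below to have passed, to be higher or to be lower where its adjusted p was under 0.05. Apart from Btn1a1 itself, 174 of 35555 probe sets were called, 0.349% as higher and 0.141% as lower in high Btn1a1 tumors. They stand for 132 named genes, 88 higher and 44 lower. Without the fold, 12.8% of the probe sets passed as higher and 17.4% as lower, most of them with small differences, and the median difference over all probe sets was -0.01.

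Milk protein genes were higher in high Btn1a1 tumors. All 10 measured members of the list passed as higher, where 12.8% of all probe sets did, and 7 were called. Their median log2 difference was 1.65. The largest differences were those of 3 caseins, the phosphoproteins of the milk micelle that carry calcium. Csn1s2a ran from 12.12 to 14.02 (median 13.52) in high tumors and from 7.29 to 13.35 (median 9.93) in low ones. Its log2 difference was 3.43 ± 0.24 (SE, n = 50 and 54), a 10.8-fold difference with an adjusted p of 1.65e-21. Of the high tumors, 33 lay above every low tumor. The low tumor 084T1 (Btn1a1 7.71) had the highest low value of Csn1s2a, and also of Csn2 (13.37) and Csn1s1 (12.84). The next highest Csn1s2a of the low group was 12.80, in 109T1.

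Csn2, the gene of beta casein, had values of 11.10 to 13.93 (median 13.50) in high and 6.94 to 13.37 (median 9.78) in low tumors. The middle tumors had a median of 12.80, much nearer to the high than to the low group. The difference was 3.31 ± 0.25 (adjusted p = 6.51e-20), and all 50 high tumors lay above the median of the low ones. Low tumors were thus not alike, and some of them reached the level of the high group. Csn1s1, of an alpha casein, ran from 10.01 to 13.22 (median 12.65) and from 5.50 to 12.84 (median 8.58), with a difference of 3.42 ± 0.28 (adjusted p = 1.97e-18).

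Other milk genes were low in most tumors and high in some of the high group. Csn1s2b, a minor casein, ran from 5.75 to 12.25 (median 7.81) in high and from 5.20 to 7.20 (median 5.82) in low tumors. The low tumor at 7.20 was again 084T1, and 36 of the 50 high tumors lay above every low one. Wap, the whey acidic protein gene used as a marker of late alveolar differentiation, ran from 6.80 to 12.47 (median 8.29) in high, from 6.55 to 12.34 (median 7.22) in middle and from 6.25 to 8.71 (median 6.78) in low tumors. Its difference was 1.48 ± 0.18 (adjusted p = 4.33e-11). A high Btn1a1 level did not go with a high Wap level in every tumor, since the lowest high tumor lay next to the median of the low group.

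Glycam1, a mucin-like milk protein, differed by 1.82 (adjusted p = 7.62e-07) and Ltf, the gene of the iron-binding lactoferrin, by 1.27 (adjusted p = 9.98e-05). By contrast, Csn3, the kappa casein that coats the micelle, differed much less. It ran from 12.54 to 13.06 in high tumors, and from 11.68 to 13.03 in the low tumors other than 168T1, where it was 7.17. The difference was 0.28 (adjusted p = 0.0462), and 0.18 (adjusted p = 2.38e-04) without that tumor. Wfdc18, a whey protein gene, had medians of 13.61 and 13.35 and differed by 0.44, or by 0.34 without 168T1.

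**Figure D2:**
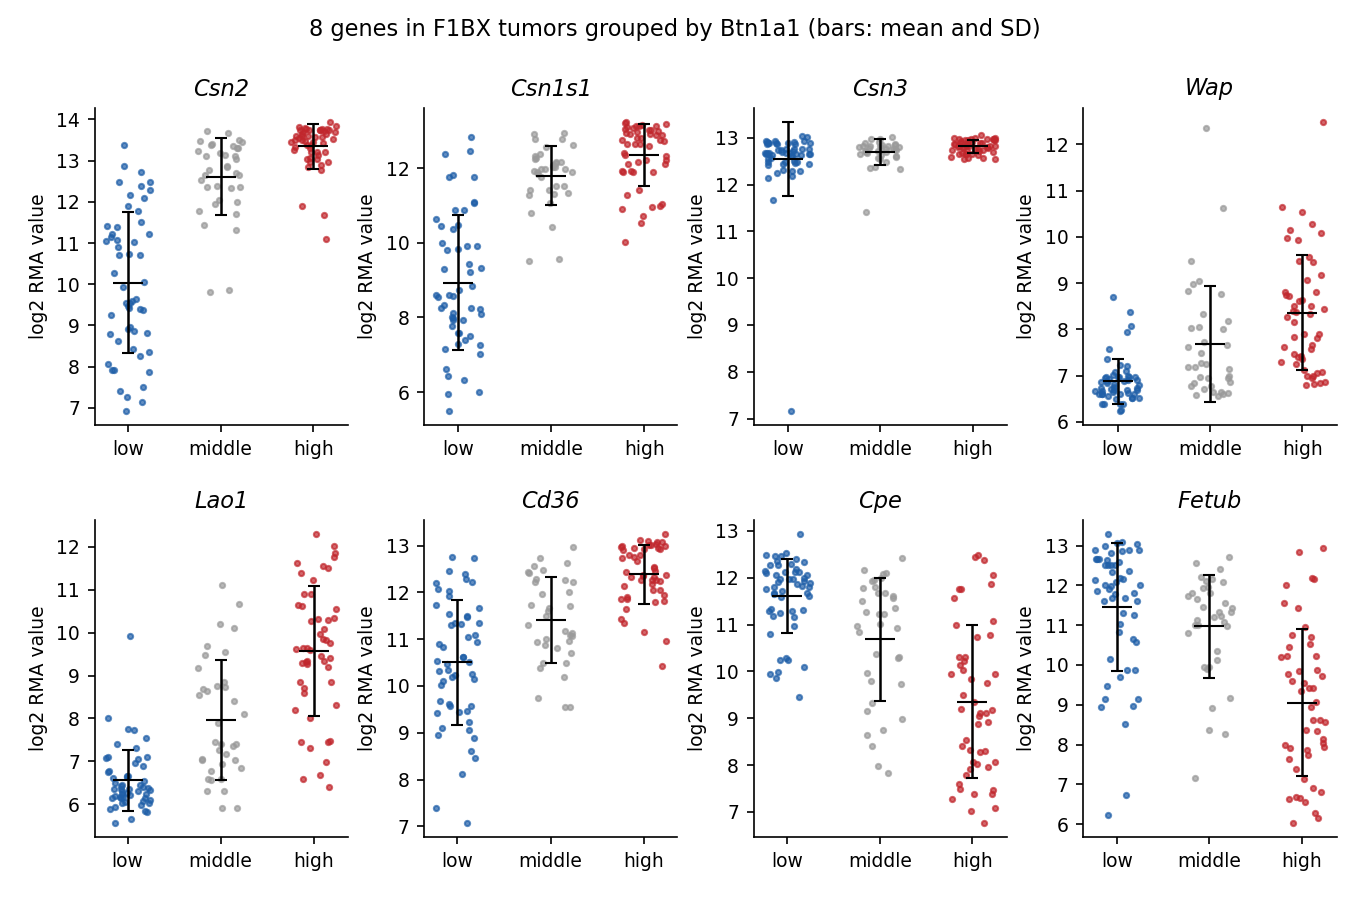
Expression of 8 genes (y axis, log2 RMA value) in low (54), middle (36) and high (50) Btn1a1 tumors of F1BX mice (x axis), 1 point per tumor, with bars for the mean and SD. Csn2, Csn1s1, Wap, Lao1 and Cd36 are higher and Cpe and Fetub lower in the high group, whereas the medians of Csn3 lie between 12.67 and 12.83 and a low tumor lies at 7.17.

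Genes of the milk fat globule followed. Of the 10 measured members, 8 passed as higher and 0 as lower, and the median difference was 0.72. Cd36, a fatty acid transporter, ran from 10.43 to 13.24 (median 12.41) in high and from 7.08 to 12.76 (median 10.52) in low tumors, a difference of 1.89 ± 0.21 (adjusted p = 1.58e-12). Muc15, a globule mucin, differed by 1.62, Mfge8, the gene of lactadherin, by 1.05, and Plin2, which coats lipid droplets, by 1.03. Plin2 ran from 11.55 to 13.10 in high and from 10.58 to 12.82 in low tumors, and all 50 high tumors lay above the median of the low ones. Xdh, of the xanthine dehydrogenase that binds butyrophilin, was higher by 0.72 (adjusted p = 2.02e-10). Cidea (-0.10) and Rab18 (-0.02) did not pass.

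Synthesis of lipid was divided. In the list of fatty acid and triglyceride synthesis, 8 of 20 measured genes passed as higher and 4 as lower, and the median was 0.13. Thrsp, a regulator of lipogenesis, ran from 6.29 to 11.92 (median 9.81) in high and from 5.67 to 10.94 (median 7.09) in low tumors, a difference of 2.19 ± 0.25 (adjusted p = 6.98e-12). Olah, the thioesterase that ends fatty acid chains at medium length in the mammary gland, differed by 2.05 ± 0.21, and all 50 high tumors lay above the median of the low ones. Scd1, a desaturase, was higher by 0.67, Acly by 0.60, Fasn, the fatty acid synthase, by 0.50, and Acaca by 0.44. The paralog of Scd1, Scd2, was 0.54 lower (log2 difference -0.54, adjusted p = 3.91e-12). Genes of cholesterol synthesis were lower for 10 of 13 and higher for 0, with a median of -0.33 and the largest difference in Cyp51 (-0.56). A further fit, added after the data were seen and described below, took the levels of 5 lists of other cell types as covariates. In that fit 4 of the 13 passed as lower, where 3825 of 35556 probe sets did, and the median was -0.12.

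Of 15 genes of alveolar transport of ions and nutrients, 8 passed as higher and 1 as lower. Slc34a2, a phosphate transporter, differed by 1.41 and Slc28a3, a nucleoside transporter, by 1.30, and both were called. Slc7a5, of a transporter of large amino acids, was higher by 0.74. Genes of lactose synthesis, of which Lalba had no probe set with 1 symbol, showed no common direction, with 1 of 8 higher and 2 lower. In the secretory pathway and unfolded protein response, 4 of 15 were higher and 2 lower, with Xbp1, a transcription factor of secretory cells, the largest (0.49, adjusted p = 3.11e-08).

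In the list of prolactin and STAT5 signaling, 8 of 18 genes passed as higher and 2 as lower, and 0 were called. Stat5a ran from 9.16 to 11.20 (median 10.33) in high and from 8.49 to 10.29 (median 9.47) in low tumors, with 26 of the 50 high tumors above every low one. Its difference was 0.78 ± 0.07 (adjusted p = 8.48e-16), a 1.72-fold change that lies below the fold required for a call. Gata3, a transcription factor of luminal cells, differed by 0.70, Stat5b by 0.46, and the STAT5 targets Cish and Socs2 by 0.43 and 0.38. Elf5, a transcription factor of alveolar progenitors, differed by 0.47 (adjusted p = 7.21e-04) and by 0.37 without 168T1, where it was 5.71. Jak2 was lower (-0.16).

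The neighbour of Btn1a1 on chromosome 13, Btn2a2, was the 1 butyrophilin gene called, as Btn1a1 itself had no test. It ran from 5.95 to 8.24 (median 7.21) in high, from 5.61 to 7.82 (median 6.44) in middle and from 4.93 to 7.21 (median 5.92) in low tumors. The difference was 1.24 ± 0.10 (adjusted p = 3.33e-18), and all 50 high tumors lay above the median of the low ones. Of the 20 measured genes nearest to Btn1a1, 10 on either side, Btn2a2 alone was called, and the median was -0.07. Among them 1 passed as higher and 8 as lower, where 12.8% and 17.4% of all probe sets did. The 8 included the histone genes H2bc9, H4c6, H1f3, H2bc8 and H4c4, and the cause of their differences was not tested. The probes of paralogs can share signal, and the sources used here do not show how far those of Btn1a1 and Btn2a2 do. Of the 5 measured members of the family other than Btn1a1, 2 passed as higher.

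Beyond the lists, Lao1, an amino acid oxidase found in milk, ran from 6.40 to 12.28 (median 9.63) in high tumors. In low tumors it ran from 5.58 to 9.92, in 084T1, with a median of 6.36. The difference was 3.02 ± 0.22 (adjusted p = 7.61e-21). Rdh12, a retinol dehydrogenase, differed by 2.99 ± 0.26 and lay above every low tumor in 32 of the 50 high ones. Npy, a neuropeptide, ran from 6.57 to 13.08 (median 9.39) and from 6.36 to 9.40 (median 6.82), with a difference of 2.52 ± 0.27. The next were Dkkl1 (2.18), Gldc (2.15), of the glycine cleavage system, and Cck (2.07), of the peptide hormone cholecystokinin. The medians of the middle tumors fell between those of the other groups for each of these 6 genes.

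Genes lower in high Btn1a1 tumors had other functions. Fetub, of a fetuin, ran from 6.04 to 12.93 (median 9.02) in high, from 7.15 to 12.72 (median 11.28) in middle and from 6.24 to 13.28 (median 11.99) in low tumors. Its log2 difference was -2.40 ± 0.33 (adjusted p = 3.87e-09), and the groups overlapped over nearly their whole range. Cpe, of the carboxypeptidase that trims peptide hormones, ran from 6.77 to 12.50 (median 9.15) in high and from 9.46 to 12.93 (median 11.84) in low tumors. Its difference was -2.29 ± 0.24 (adjusted p = 3.63e-13), and 28 of the 50 high tumors lay below every low one.

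Bcar3, an adaptor protein studied for resistance to antiestrogens, had the most high tumors below every low one among the 44 named genes called lower. It ran from 7.10 to 10.09 (median 8.11) in high and from 8.44 to 11.07 (median 10.03) in low tumors, with a difference of -1.71 ± 0.14 (adjusted p = 1.97e-18), and that number was 33. Further genes were Dlgap1 (-2.05), Gpx2 (-1.89), a glutathione peroxidase, Unc79 (-1.87), Trpm3 (-1.77), an ion channel, and Pglyrp1 (-1.75), which binds peptidoglycan. Hs3st3a1 (-1.64), Myo7a (-1.57), Ahsg (-1.43), another fetuin, and Pgf (-1.43), the placental growth factor, completed the 12 largest decreases.

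**Figure D3:**
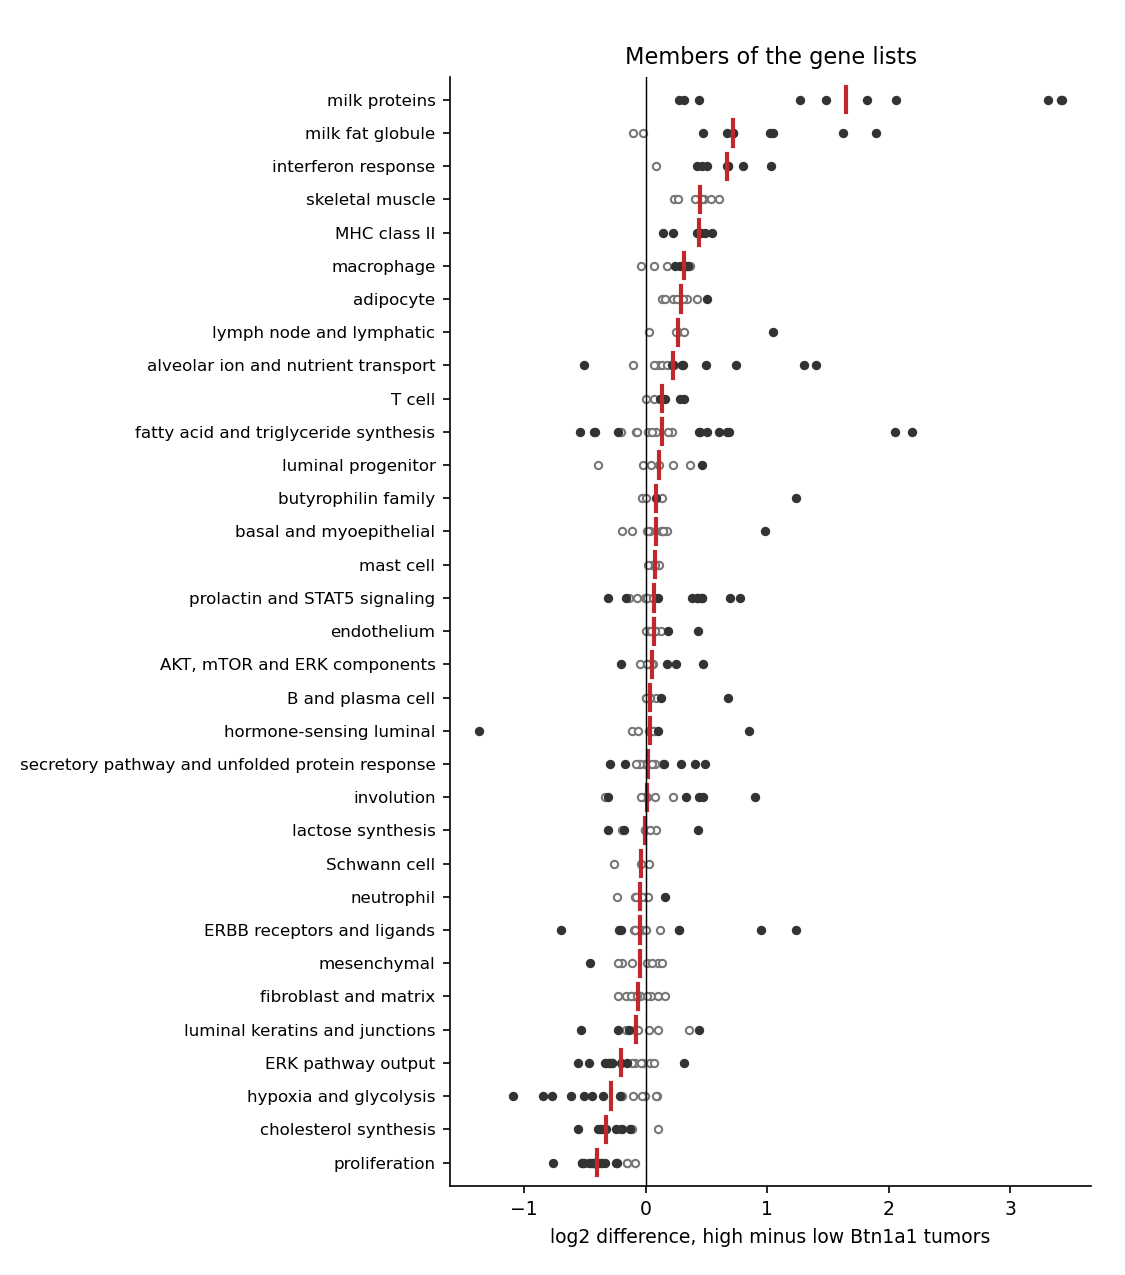
Log2 difference between high and low Btn1a1 tumors (x axis) of each measured member of 33 gene lists (y axis, in the order of their medians). Filled points passed at an adjusted p under 0.05, open points did not, and red bars mark the median of a list, from -0.40 for proliferation to 1.65 for milk proteins.

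Proliferation genes were lower in high Btn1a1 tumors. Of 19 measured, 16 passed as lower, where 17.4% of all probe sets did, 0 passed as higher and 0 were called, with a median of -0.40. Rrm2, a subunit of ribonucleotide reductase, ran from 8.80 to 11.30 (median 10.23) in high tumors. In low tumors it ran from 8.05, in 084T1, to 12.13 (median just under 11). The difference of Rrm2 was -0.77 ± 0.12 (adjusted p = 3.30e-07). Top2a, a topoisomerase of dividing cells, differed by -0.50 (adjusted p = 3.44e-05), while Mki67 (-0.15, adjusted p = 0.286) did not pass. The mean level of the list ran from 8.20 to 9.85 (median 9.29) in high and from 7.53 to 10.11 (median 9.61) in low tumors. With the cell type lists as covariates, 2 of the 19 passed as lower and the median was -0.18. In that fit 3825 of 35556 probe sets passed as lower, so the share of the list was near that of all probe sets. The count of the list thus depended on that fit, in which the difference of Rrm2 was -0.34.

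The hypoxia and glycolysis list had 8 of 14 genes lower and 0 higher, with a median of -0.28. Adm, of adrenomedullin, was called (-1.09, adjusted p = 1.42e-07), and Pfkfb3 (-0.85), Bnip3 (-0.77) and Vegfa (-0.61) followed, whereas Car9 (0.09) and Slc2a1 (0.09) did not pass. In the output of ERK signaling, 10 of 17 were lower and 1, Dusp5, was higher, with Egr1 (-0.56) and Etv4 (-0.47) the largest decreases and a median of -0.20. With the cell type lists as covariates, 6 genes of each list passed as lower, where 3825 of 35556 probe sets did. These differences were small beside those of the milk genes, and Adm was the 1 gene of both lists that was called.

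Erbb2 itself did not pass. It ran from 11.73 to 12.80 (median 12.45) in high and from 9.32, in 168T1, to 12.86 (median 12.37) in low tumors. The difference was 0.12 (adjusted p = 0.189), or 0.06 without that tumor. Among its relatives, Egf, the epidermal growth factor, was called (1.24 ± 0.20, adjusted p = 5.57e-07), with 7.38 to 11.18 (median 9.47) in high and 6.95 to 10.80 (median 7.80) in low tumors. Erbb4, a receptor that acts on STAT5 in the alveolus, was higher by 0.95 (adjusted p = 0.0015) and Egfr by 0.27. The ligand Hbegf was lower (-0.69, adjusted p = 1.08e-07). Of the 14 measured receptors and ligands, 3 were higher and 3 lower. Of 11 components of AKT, mTOR and ERK signaling, 3 were higher and 1 lower, Pik3r1 (0.48) by most.

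Markers of luminal cells did not share a direction. Among 10 luminal keratins and junction genes, 1 was higher and 3 were lower, with Krt8 at -0.22 and Epcam at 0.10 (adjusted p = 0.537). Without 168T1, whose Epcam was 6.49, 1 was higher and 4 were lower. Of 7 luminal progenitor genes, 1 was higher, and without that tumor 2 were higher and 1 was lower. In the hormone-sensing list, Esr1, the estrogen receptor, was higher by 0.85 ± 0.10 (adjusted p = 5.40e-11) while Pgr (0.02) did not pass, and Prom1 was called lower (-1.37, adjusted p = 2.72e-09). Oxtr, the oxytocin receptor of contractile myoepithelial cells, was the 1 basal gene of 10 that passed (0.98). Of 13 involution genes, 4 were higher and 1 lower, with Clu, of clusterin, at 0.90.

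Interferon, MHC class II, macrophage and T cell genes were higher by small amounts in high Btn1a1 tumors, whereas those of other immune cells mostly did not pass. Of 9 interferon response genes, 8 passed as higher (median 0.67), with Irf7 called (1.03 ± 0.19, adjusted p = 4.18e-06). All 6 MHC class II genes passed (median 0.44), as did 7 of 11 macrophage genes (median 0.32), 5 of 7 T cell genes (median 0.14) and 2 of 8 B and plasma cell genes (median 0.04). With 1 tumor per mouse, 1 of the 9 interferon genes, 4 of the 6 MHC class II genes and 7 of the 11 macrophage genes passed. Within mice, the comparison described below, these counts were 1, 2 and 1. The mean level of the macrophage list ran from 8.36 to 10.83 (median 8.97) in high and from 7.99 to 9.73 (median 8.90) in low tumors. The T cell list ran from 5.85 to 6.64 and from 5.77 to 6.52. Fibroblast, mast cell, skeletal muscle and Schwann cell lists had 0 members that passed, although the 8 muscle genes had a median of 0.45, endothelium had 2 of 10, adipocytes 1 of 9, neutrophils 1 of 8 (median -0.04) and the mesenchymal list 1 of 8, Vim (-0.46). These shares lie near or below the background. Of 5 lymph node and lymphatic genes, Prox1 alone passed and was called (1.05, adjusted p = 1.08e-13).

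A few tumors had high levels of muscle or fat genes. The mean level of the skeletal muscle list reached 12.03 in a high and 11.13 in a low tumor, where the medians were 6.43 and 6.42, and the adipocyte list reached 10.24 and 8.99, with medians of 6.77 and 6.71. The cell type covariates named above were the mean levels of the skeletal muscle, adipocyte, macrophage, T cell and fibroblast lists in each tumor. In that fit the milk protein list had 10 of 10 higher and a median of 1.53. Csn2 then differed by 3.30, Wap by 1.43 and Cpe by -1.86. In the same fit 1 of 9 interferon genes (median 0.20) and 0 of 6 MHC class II genes (median 0.16) passed as higher. Over all probe sets, 2861 passed as higher in that fit, against 4554 in the main comparison, and 96 were called. Any part of other cell types in the remaining differences was not tested. With the proliferation level as a covariate, also added, Csn2 differed by 3.11 and 9 of the 10 milk protein genes passed.

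Tumors of the same mouse were compared in the 11 mice that had both kinds, 12 high and 14 low tumors, with the mouse as a fixed term. These tumors are among those compared above. Under the same thresholds 0.428% of the probe sets were called, 86 higher and 66 lower, and 13.2% passed at an adjusted p under 0.05. Csn2 was higher in the high tumors of 11 of 11 mice, by 0.49 to 6.31, with a difference of 3.40 ± 0.45 (adjusted p = 5.09e-04). Wap was higher in 11 of 11 mice (1.61, adjusted p = 0.00178), and so were Lao1 (3.39), Stat5a (0.94) and Btn2a2 (1.39). Csn1s1 was higher in 10 of the 11.

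The exception for Csn1s1 was mouse 163, whose high tumor 163T4 lay just above the limit for Btn1a1. In mouse 299, the low tumor 299T6 had a Csn1s1 of 12.45 beside a Csn2 of 7.14, so that these caseins did not go together in that tumor. Cpe, Fetub, Bcar3, Prom1 and Rrm2 were lower in the high tumors of 11 of 11 mice, with differences of -3.25, -3.13, -2.01, -1.84 and -1.13. Of the 19 proliferation genes, 14 passed as lower within mice (median -0.57), and the interferon genes had a median of 0.63. Erbb2 differed by 0.04 (adjusted p = 0.606).

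**Figure D4:**
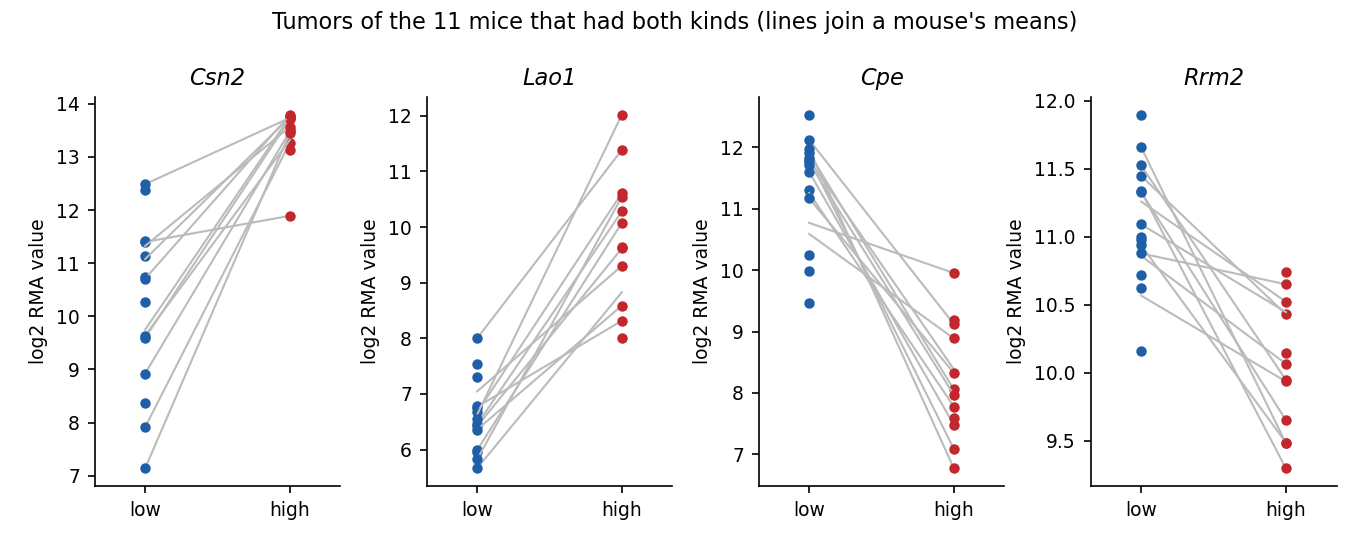
Csn2, Lao1, Cpe and Rrm2 (y axis, log2 RMA value) in the 14 low and 12 high Btn1a1 tumors (x axis) of the 11 mice that had both, 1 point per tumor, with lines joining the means of each mouse. In all 11 mice Csn2 and Lao1 rise and Cpe and Rrm2 fall from low to high.

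FVB tumors took no part in the comparisons above. By the same limits 17 of the 26 FVB tumors were high, 6 middle and 3 (P04T1, P07T1 and P21T1) low in Btn1a1. The middle tumor 063T1, labelled FVB, has a name of the form used for F1BX mice and took no part in the FVB comparison. Between high and low FVB tumors 0.383% of the probe sets were called and 5.25% passed at an adjusted p under 0.05. Of the 174 probe sets called in F1BX tumors, 57 (32.8%) were called in FVB tumors too, which is 41.9% of those called there. The calls depended on single tumors, with 62 without the low tumor P07T1 and 229 without the high tumor P09T1. The direction was that of the F1BX tumors for 172 of the 174, against 65.8% of all probe sets. The median difference of those called higher was 1.58 in FVB and 1.32 in F1BX tumors, and that of those called lower was -1.46 in FVB and -1.24 in F1BX tumors.

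Csn2 ran from 11.89 to 13.76 in the 17 high FVB tumors and from 9.10 to 11.64 in the 3 low ones, without overlap (2.96 ± 0.35, adjusted p = 4.20e-05). Csn1s1 ran from 11.87 to 13.29 and from 7.77 to 8.40, a difference of 4.75. Npy lay at 10.00 or more in every high and at 6.91 or less in every low FVB tumor, a difference of 4.86. Bcar3 ran from 7.26 to 8.27 and from 9.41 to 9.72 (-1.85, adjusted p = 4.81e-07). The ranges of these 4 genes did not overlap. With only 3 low tumors this is a weak criterion, and its share over all probe sets was not counted. Glycam1 (1.70, adjusted p = 0.404 by limma) and Olah (1.38, adjusted p = 0.285) did not pass in FVB tumors.

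Interferon genes had a median of -0.38 in FVB tumors, where 0 of 9 passed, and proliferation genes one of -0.42, with 5 of 19 lower. A test of the difference between the backgrounds (limma interaction) passed for 0 of 35556 probe sets, with 1549 at an unadjusted p under 0.05 and a lowest adjusted p of 0.0632. The 3 low FVB tumors limit the precision of this test. Erbb2 differed by -0.24 in FVB tumors (adjusted p = 0.0516). Of the 28 F1 tumors, 6 were on narrow arrays and were left out, and the other 22, 2 high, 8 middle and 12 low in Btn1a1, were not tested. Csn2 was 13.16 and 13.58 in the 2 high F1 tumors and ran from 6.37 to 12.73 (median 10.95) in the 12 low ones. Among these was 051T1, which is labelled F1 but named like F1BX tumors, and without it the range was the same and the median 11.12.

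**Figure D5:**
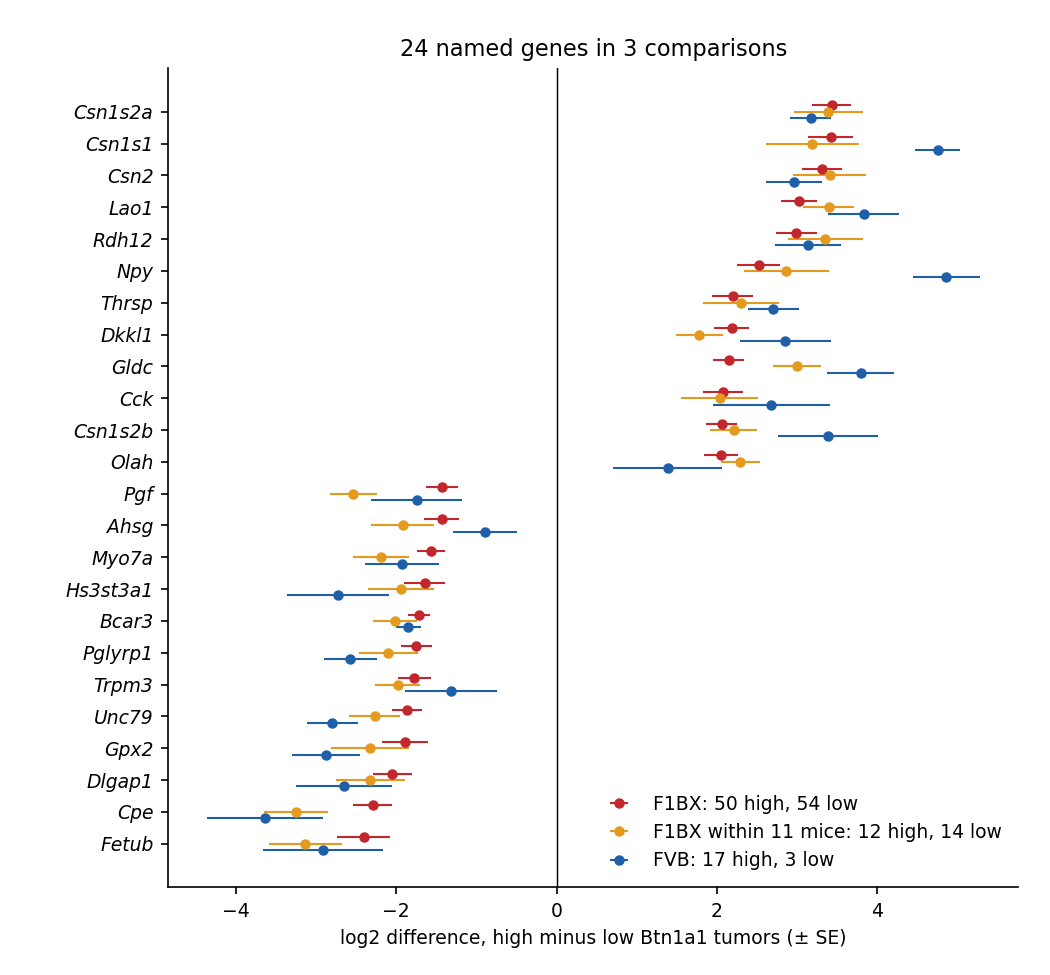
Log2 difference with its SE (x axis) between high and low Btn1a1 tumors for the 12 called genes with the largest differences in each direction (y axis), in all F1BX tumors (50 and 54), within 11 F1BX mice (12 and 14) and in FVB tumors (17 and 3). The 12 upper genes have differences above 0 and the 12 lower ones below 0 in FVB tumors too, and the first and second comparisons share tumors.

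Of the 18 F1BX tumors on arrays with an interquartile range below 2.8, which were not among the tumors above, 4 were high and 6 low in Btn1a1, all from other mice than those compared above. In this comparison, made after the data were seen, 2 probe sets were called and 28 passed at an adjusted p under 0.05. Of the 174 probe sets, 172 had the direction of the main comparison, against 64.2% of all probe sets. Lao1 (3.98, adjusted p = 0.0109 by limma) and Cpe (-4.61, adjusted p = 4.4e-05) passed, whereas Csn2 (3.78, adjusted p = 0.284) did not. The macrophage list had a median of -0.48 there and the MHC class II list one of -0.08, opposite in sign to those above. The interferon list kept its sign, with a median of 0.83. In each of these lists 0 members passed there. A low tumor of these arrays, 092T1, resembled 168T1, with an Epcam of 6.39 and an Erbb2 of 8.32.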

How the data were processed

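RNA of mouse mammary tumors and glands was measured on Affymetrix mouse gene arrays. The authors normalized the arrays by RMA, and the deposited log2 values of 35556 probe sets were used as deposited. Arrays have no counting depth, so the number of tumors limits the precision.

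The backgrounds and gland groups came from the labels, and the mouse from the tumor name. The high, middle and low groups came from the measured Btn1a1 value. Comparisons were made in R 4.3.3 with limma 3.58.1 (lmFit and eBayes), with Benjamini-Hochberg adjustment over all probe sets. The correlation within a mouse was estimated on every 10th probe set and was 0.167 in the main comparison. The SAM test of the methods takes no mouse block and was not run. The fit was tested on simulated data. Symbols came from the platform annotation, updated through RefSeq, and each gene by whichever of its probe sets had the highest mean in the tumors. Of 35556 probe sets, 21789 carried 1 symbol. Members of the gene lists not measured by such a probe set, such as Lalba and Prlr, were left out.

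The genes named are the 12 called ones with the largest differences in each direction, members of the lists, Erbb2 and called neighbours of Btn1a1, with predicted genes left out. The members and lists were chosen with earlier results of these data known. Alternatives covered the mouse block, the Btn1a1 limits, array covariates, quantile normalization, a filter on low values, the variance model and single tumors left out.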

Additional observations from a re-analysis of the deposited data

Results flagged for a closer look

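Of the 4 high Btn1a1 tumors of F1BX mice on arrays with an interquartile range below 2.8, the tumor 171T2 had a Wap of 10.10, far from the other 3 (a gap of 0.836 of the range of the group). Chance alone sets a sample apart to this degree in about 1 of 20 groups with normally distributed values. How many genes and groups were looked over is not given, so the gap alone is no evidence about this tumor. Whether the value reflects the tumor or the array was not tested.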

How the results depend on the processing

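Against 174 calls, 84 were made with Btn1a1 divided at 10, 341 with limits of 12 and 8, 45 with Btn1a1 as a continuous term per 3 log2 units, and 10745 at an adjusted p under 0.05 without a fold. Among the alternatives chosen after seeing the data, tumors numbered 1 alone gave 114 calls, and the levels of the 5 cell type lists as covariates gave 96. Under these covariates the differences of Cd22 (-0.0078) and Csf3r (-0.0631), which had passed as higher, fell just below 0. In their lists, 0 members passed as lower in that fit. Of 166 genes that had passed, a further 54 no longer did. The cause was not tested. The fit with no replicate block made 173 calls, the one with the mouse as a fixed replicate block in the 11 mice 152, and 1 tumor per mouse gave 128. The other alternatives, run with array covariates (168), all arrays (173), quantile normalization (175), a filter (169), a robust variance trend (174), the proliferation covariate and without 168T1 (172), stayed within 1.5 times of the 174 calls. Among FVB tumors, against the calls given above, a division at 10 gave 248 and leaving out 1 tumor at a time between 62 and 229, where fits whose correlation could not be estimated had no block. Replicate numbers in the labels only name tumors, and the pairing used was the mouse. No alternative was run for the comparison on narrow arrays, whose 10 tumors limit its precision.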

Other observations

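The 8 normal glands were measured on arrays with a narrower spread of values, so their levels are given beside those of the tumors without a test, with the 3 wild type F1 glands apart from the 5 glands with the MMTV-ErbB2 transgene (2 F1 and 3 FVB). Wap was 12.78, 12.86 and 13.07 in the wild type glands, and 7.61, 8.17, 8.58, 10.80 and 10.90 in those with the transgene. Csn2 ran from 13.95 to 14.05 in the wild type glands and from 12.40 to 13.29 in the others, and Csn1s1 from 13.46 to 13.65 and from 12.10 to 13.06. The wild type glands thus lay above those with the transgene in all of these milk genes. Erbb2 ran from 8.26 to 8.35 in the wild type glands and from 9.05 to 10.48 in the others.

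Other genes overlapped between the genotypes. Fetub, which had a median of 9.02 in high and 11.99 in low tumors, ran from 5.74 to 6.22 in the wild type glands and from 5.89 to 6.54 in those with the transgene. Cpe ran from 8.78 to 9.45 and from 7.29 to 9.54, and Bcar3 from 7.97 to 8.31 and from 7.70 to 9.75. Rrm2 ran from 6.69 to 7.04 and from 6.16 to 6.99, and between 8.05 and 12.13 in the high and low tumors.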
